A study of Mus musculus with 32 samples.

Results

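Liver of mouse embryos aged 14.5 or 16.5 days, counted from conception, was compared with that aged 12.5 or 13.5 days, across all genes of the array. The members were chosen by the age in the source name of each sample: 8 of the 32 arrays of the series, of which 4 came from the later ages (2 of 14.5 days and 2 of 16.5 days) and 4 from the earlier ages (2 of 12.5 days and 2 of 13.5 days). All embryos were of the outbred CD-1 strain with no treatment or engineered allele. Livers were microdissected, the surrounding tissue and the vena cava behind the liver were removed, and each array took 6 microg of total RNA from a pool of at least 3 tissues. Another label field gives an age of 10.5 days for every embryonic array, and the description field calls each of them adult female liver; neither was used, because both conflict with the source names and the titles. The remaining 24 arrays of the series, 4 of younger embryos (10.5 and 11.5 days) and 20 of liver from 10-week-old female CD-1 mice before or after partial removal of the organ, entered only the estimate of the spread and are named where they give context. The 2 samples of a stage are separate pools, each of tissues from different animals, and the sources used here do not say from which litters.

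During these days the fetal liver is both the main site of blood formation and a growing epithelial organ. Hepatoblasts, the bipotent cells of the liver bud, mature into hepatocytes that secrete plasma proteins and later take up nitrogen, glucose and drug metabolism, while erythroid, myeloid and macrophage lineages expand between them. Red cells of the yolk sac generation, which carry embryonic globins, are replaced in the circulation by enucleated cells that are made in the liver and carry adult globins. A whole liver was measured, so a lower share of cells of a type and less RNA per cell cannot be told apart.

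The measured values were Affymetrix mouse whole-genome probe set intensities on a linear scale, given here as deposited, so that values near or below 0 are at background. The 8 arrays were alike in overall level: their medians ran from 72.6 to 79.5, and 2.79% to 3.10% of their values were below 0. The difference between both arrays of a stage had an SD of 0.34 to 0.37 on the log2 scale, against 0.29 to 0.75 in the groups of adult liver. Changes were tested as log2(value + 16) with limma and Benjamini-Hochberg adjustment over 18194 genes, and a gene was called at an adjusted p below 0.05. The constant of 16 makes the fitted change of dim genes smaller than the ratio of their values, and where values lie near or below 0 the fitted size depends on it. Defining markers of fetal liver were present in all 8 arrays: Alb (albumin) read 8035 to 8941, Afp (alpha-fetoprotein) 5963 to 6574, and the red cell regulator Gata1 1337 to 1517.

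The arrays of 12.5 days stood apart from the others in heart muscle genes. Myh7, a cardiac myosin heavy chain, read 275 and 1045 at 12.5 days, -14.3 and 3.66 at 13.5 days, -1.44 and -4.40 at 14.5 days, and -2.88 and -7.66 at 16.5 days. Nppa, the atrial natriuretic peptide of the heart, read 178 and 1049.95 at 12.5 days, 4.32 and -7.52 at 13.5 days, -20.2 and -3.36 at 14.5 days, and -11.6 and 4.52 at 16.5 days. Both genes were high in the arrays of 12.5 days, higher in the second of them, and at background in the other 6 arrays. Actc1, cardiac actin, chosen here after its values were seen, read 1958 and 4319.9 at 12.5 days, 434 and 644 at 13.5 days, 898 and 621 at 14.5 days, and 798 and 782 at 16.5 days, so the same order held on a higher level. Summed over the 23 measured markers of neighbouring organs, which include heart, gut, pancreas, lung and nerve, the intensity was 5096 and 11484 in the arrays of 12.5 days and 2812 to 3664 in the others. In the second array of 12.5 days the median gene of the hepatocyte lists was also lower than in the first. The largest drops on the log2 scale were 0.41 for urea cycle and amino acid breakdown and for conjugation enzymes, 0.38 for serpins and related inhibitors, and 0.36 for complement. Other lists differed less, with -0.18 for coagulation, -0.12 for cytochrome P450 and -0.09 for gluconeogenesis, glycogen and fructose. The embryonic globins were higher by 0.91. How far these differences shape the comparison was not tested, and its counts are therefore given with and without these arrays.

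Of 18194 genes, 192 were called (1.06%): 90 were higher in the later liver (0.495%) and 102 lower (0.561%). At least a 2-fold fitted change was seen in 42 of the higher and 29 of the lower genes, and the median of all genes was 0.03. An unadjusted limma p below 0.05 was seen in 1831 of the 18194 genes. For 85 of the 90 and 65 of the 102 the later and earlier arrays did not overlap, where 5.73% of all genes had the 4 later arrays above the 4 earlier ones and 4.61% had them below. A fit of the 8 arrays alone called 212 higher (1.17%) and 106 lower (0.583%), and 114 genes were called by both fits. The split between higher and lower depends on the scale of the arrays: with each array shifted to a common 75th percentile, 73 genes were higher and 141 lower.

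Without both arrays of 12.5 days, where the later ages were set against 13.5 days alone, 8 genes were higher and 5 lower, and 11 of the 13 were among the 192. All 90 higher genes and 101 of the 102 lower genes had a change of the same sign as before. The median ratio to the full change was 0.68 (higher) and 0.65 (lower). The full change includes the day from 12.5 to 13.5 that this comparison leaves out. These genes were picked for their full change, and this comparison reuses all later arrays and those of 13.5 days. The kept signs and the ratios are therefore no independent check of the calls. Leaving out the first array of 12.5 days left 125 higher and 101 lower genes, and leaving out the second left 47 and 59. The other single arrays mattered as much: 56 and 82 were called without the first array of 13.5 days, 41 and 46 without the second, 40 and 65 without the first of 14.5 days, 46 and 56 without the second, 43 and 56 without the first of 16.5 days, and 37 and 70 without the second. A set of 62 genes, 28 higher and 34 lower, was called in every one of these 8 fits, and they are named leave-one-out calls in what follows. Of these 62, 46 were also called in the fit of the 8 arrays, 11 without the arrays of 12.5 days and 58 without those of 14.5 days.

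**Figure D1:**
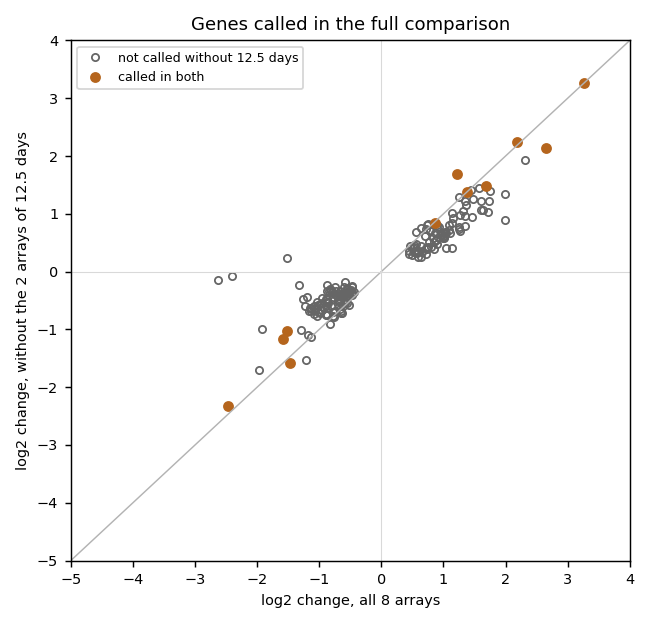
Log2 change (later minus earlier liver) of the 192 called genes with all 8 arrays on the x axis and without the 2 arrays of 12.5 days on the y axis, with the line of equality; filled points are the 11 genes called in both. The points keep their side of 0 in 191 of 192 cases. This is no independent check, because the genes were picked on the x axis and both axes share arrays. The heart genes Myh7, Nppa and Tnnt2 at the left lie near or above 0 on the y axis.

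Several plasma proteins that hepatocytes secrete rose in the later liver. Counted over the fixed lists, 4 of 24 measured apolipoproteins and carriers were called higher, 5 of 16 serpins, inter-alpha inhibitors and macroglobulins, 6 of 15 coagulation genes and 1 of 14 complement genes, and none was called lower, against 0.495% of all genes called higher. The median log2 changes of these lists were 0.36, 0.61, 0.75 and 0.64, beside 0.03 for all genes. In the fit of the 8 arrays alone the counts were 7, 10, 12 and 6, beside 1.17% of all genes called higher. None of these members was called without the arrays of 12.5 days, where the medians were 0.22, 0.34, 0.42 and 0.45. Without the second array of 12.5 days alone 2 carriers, 2 of the serpin and inhibitor list, 0 coagulation and 0 complement genes were called, with medians of 0.33, 0.51, 0.66 and 0.57.

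Among the carriers, Hp (haptoglobin, which binds free hemoglobin) read 7.90 and 6.74 at 12.5 days, 47.4 and 41.1 at 13.5 days, 106 and 86.8 at 14.5 days, and 121 and 117 at 16.5 days. It rose (log2 change 1.71 ± 0.18 (SE), adjusted p = 9e-06), with all later arrays above all earlier ones. Ahsg, fetuin-A, is a fetal plasma protein that binds calcium phosphate, and it read 1083 and 709.7 at 12.5 days, 2046 and 1845 at 13.5 days, 3326 and 3366 at 14.5 days, and 3397 and 3352 at 16.5 days. It rose (log2 change 1.35 ± 0.19 (SE), adjusted p = 0.000514), reached its level by 14.5 days and read the same at 16.5 days (log2 change 0.01). Hp and Ahsg are leave-one-out calls. Apoc4 (log2 change 1.26, adjusted p = 0.0266) and Apoh, beta-2-glycoprotein I (log2 change 1.09, adjusted p = 0.0346), also rose, but neither is a leave-one-out call. Other carriers, of which a pair is named here after their values were seen, were bright from the start and did not pass the test: Apoa1, the main protein of HDL, read 3468 and 2956 at 12.5 days, 5189.9 and 5006 at 13.5 days, 5891 and 5636 at 14.5 days, and 5952 and 6229 at 16.5 days (adjusted p = 0.531), and the thyroid hormone carrier Ttr had a log2 change of 0.35 (adjusted p = 0.602).

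Cp, ceruloplasmin, is a copper-carrying ferroxidase of plasma that lets iron leave cells. It read -23.7 and -26.3 at 12.5 days, 10.4 and 23.8 at 13.5 days, 83.6 and 119 at 14.5 days, and 177 and 145 at 16.5 days: background at 12.5 days, a trace at 13.5 days and a clear signal in all 4 later arrays. It had the smallest adjusted p of all list genes (log2 change 2.65 ± 0.18 (SE), adjusted p = 2.19e-08), was called between 13.5 and 14.5 days on its own (log2 change 1.84, adjusted p = 0.00189), and stayed called without the arrays of 12.5 days. Since 2 of the 4 earlier arrays were below 0, the size of its change depends on the constant and no fold is given. Cp was the single call among 12 measured genes of iron control, beside 0.495% of all genes called higher. Hamp, the hepatocyte hormone hepcidin that blocks iron export, read 56.9 and 54.8 at 12.5 days, 68.6 and 55.1 at 13.5 days, 87.02 and 79.8 at 14.5 days, and 79.5 and 115 at 16.5 days (adjusted p = 0.502), where unoperated adult liver averaged 3254.

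Of the protease inhibitors, Itih4, a heavy chain of the inter-alpha inhibitor family, read 49.4 and 11.5 at 12.5 days, 204 and 157 at 13.5 days, 433 and 385 at 14.5 days, and 317 and 271 at 16.5 days. Its rise (log2 change 1.99 ± 0.25 (SE), adjusted p = 0.000135) included a call for the first day alone (log2 change 2.20 from 12.5 to 13.5 days, adjusted p = 0.00639). Pzp, a macroglobulin that traps proteases, read 329 and 234 at 12.5 days, 578 and 620.1 at 13.5 days, 1249 and 1238 at 14.5 days, and 1278 and 1333 at 16.5 days, a rise in which no array overlapped (log2 change 1.60 ± 0.22 (SE), adjusted p = 0.000427). A2m, its relative, read 169 and 229.99 at 12.5 days, 486 and 529 at 13.5 days, 646 and 617 at 14.5 days, and 709 and 735 at 16.5 days (log2 change 1.05 ± 0.16 (SE), adjusted p = 0.00138), with the step already at 13.5 days (adjusted p = 0.0204 for that day). Itih4, Pzp and A2m are leave-one-out calls. A2m, which is in none of the lists, was not called without the arrays of 12.5 days either (log2 change 0.40, adjusted p = 0.939). Serpina1c, an alpha-1-antitrypsin (log2 change 1.64, adjusted p = 0.0252), Itih1 (log2 change 1.01, adjusted p = 0.0291) and Kng1, the kininogen (log2 change 0.99, adjusted p = 0.0291), also rose, and these 3 lost the call when single arrays other than the first of 12.5 days were left out. Serpina1c belongs to a family of near-identical copies, so its probe set may read several of them.

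In the clotting system, the called genes were F5, F11, F13b, Fgb, Fgg and Klkb1, and none of them is a leave-one-out call (F5 was named after its values were seen). Fgg, the gamma chain of fibrinogen, read 1602 and 1196 at 12.5 days, 2111 and 2351 at 13.5 days, 3382 and 3168 at 14.5 days, and 3181 and 3303 at 16.5 days. Its log2 change was 0.88 ± 0.18 (SE, adjusted p = 0.015). F11, the zymogen of the contact pathway, read 52.5 and 40.8 at 12.5 days, 83.01 and 116 at 13.5 days, 167 and 148 at 14.5 days, and 176 and 174 at 16.5 days. The fitted log2 change was 1.11 ± 0.25 (SE, adjusted p = 0.0299). Each later array was above each earlier one for both genes, as for 13 of the 15 measured members, beside 5.73% of all genes. C8b, a subunit of the membrane attack complex, was the single complement call (log2 change 1.10, adjusted p = 0.0114). Every later array was above every earlier one for 10 of the 14 complement genes, beside 5.73% of all genes.

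**Figure D2:**
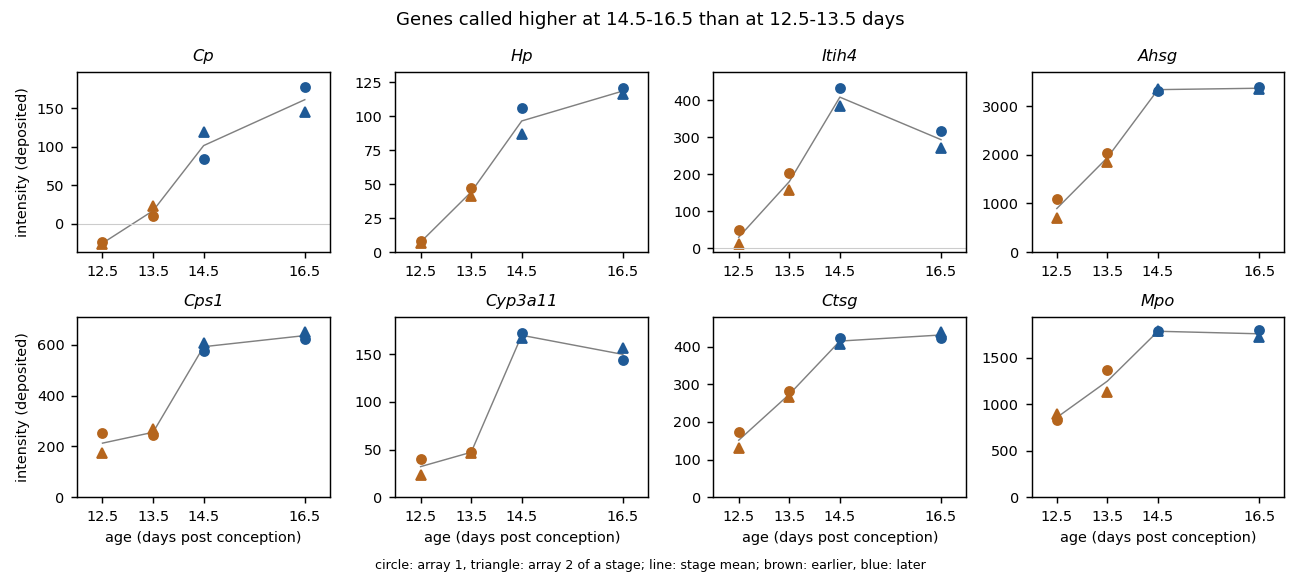
Deposited intensity (y axis, linear, own scale per gene) against age in days post conception for 8 genes called higher in the later liver; the points are single arrays and the line joins stage means. All 4 later arrays of each gene lie above its 4 earlier arrays, and most genes are level between 14.5 and 16.5 days.

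Some enzymes of hepatocyte metabolism rose, where 0.495% of all genes were called higher. Called higher were 4 of 34 genes of the urea cycle and amino acid breakdown (median log2 change 0.43), 2 of 15 of gluconeogenesis, glycogen and fructose (0.26), 2 of 23 cytochrome P450 genes (0.19), 3 of 24 conjugation enzymes (0.31) and 1 of 18 of bile acid synthesis and transport (0.37). Fatty acid oxidation and ketogenesis had 0 of 17 (0.18), fatty acid and triglyceride synthesis 0 of 20 (0.14) and cholesterol synthesis and uptake 0 of 15 (0.31), and no list of enzymes had a gene called lower by limma. Of the last 3 lists 2, 1 and 3 genes were below an unadjusted p of 0.05, beside 1831 of all 18194 genes. In the fit of the 8 arrays the counts of these 8 lists were 8, 3, 2, 5, 2, 1, 1 and 2, beside 1.17% of all genes called higher. Without the arrays of 12.5 days 1 member of all 8 lists, Cyp3a11, was called.

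Cps1, carbamoyl phosphate synthetase, makes the entry step of the urea cycle. Its values were 251 and 175 at 12.5 days, 244 and 267 at 13.5 days, 577 and 608 at 14.5 days, and 622 and 652 at 16.5 days, with no trend over the earlier arrays and a step at 14.5 days (log2 change 1.35 ± 0.23 (SE), adjusted p = 0.00392). Gnmt and Mat1a, which consume and make S-adenosylmethionine, had log2 changes of 1.31 (adjusted p = 0.0102) and 1.25 (adjusted p = 0.0158), and Bhmt, which returns homocysteine to methionine, had 0.97 (adjusted p = 0.0294). Only Cps1 of these 4 is a leave-one-out call. Fbp1, the fructose bisphosphatase of gluconeogenesis, read 94.3 and 70.1 at 12.5 days, 65.97 and 106 at 13.5 days, 184 and 227 at 14.5 days, and 314 and 300.5 at 16.5 days (log2 change 1.44 ± 0.29 (SE), adjusted p = 0.0125), and Pygl, liver glycogen phosphorylase, also rose (log2 change 0.59, adjusted p = 0.0346). Neither is a leave-one-out call, and Pygl also lost its call with quantile normalization and with a common 75th percentile. Adult liver averaged 4194 for Fbp1 and 4419 for Cps1, far above all 8 embryonic arrays.

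Cyp3a11, the main drug-oxidising P450 of mouse liver, read 40.4 and 23.7 at 12.5 days, 47.5 and 46.7 at 13.5 days, 173 and 167 at 14.5 days, and 144 and 156 at 16.5 days. All later arrays were above all earlier ones (log2 change 1.68 ± 0.15 (SE), adjusted p = 9.77e-07). The step from 13.5 to 14.5 days was called on its own (log2 change 1.56, adjusted p = 0.00145), and Cyp3a11 was called under all 22 alternative settings. Cyp2d26, another P450, read 31.97 and 6.00 at 12.5 days, 61.9 and 67.8 at 13.5 days, 173 and 166 at 14.5 days, and 239.9 and 182 at 16.5 days. This gave a log2 change of 1.99 ± 0.30 (SE, adjusted p = 0.000968). Sult1a1, a sulfotransferase for phenols, read 26.1 and 13.8 at 12.5 days, 42.5 and 41.6 at 13.5 days, 126 and 137 at 14.5 days, and 152 and 129 at 16.5 days (log2 change 1.74 ± 0.29 (SE), adjusted p = 0.00239), and Akr1d1, the steroid 5-beta-reductase of bile acid synthesis, went from at most 25.3 in the earlier to at least 71.2 in the later arrays (log2 change 1.60 ± 0.27 (SE), adjusted p = 0.00343). These 3 are leave-one-out calls. Gsta3 (log2 change 1.46, adjusted p = 0.0355) and Ugt2b36 (log2 change 1.16, adjusted p = 0.0476), a glutathione and a glucuronosyl transferase, are not.

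Outside the lists, the largest rises included Upb1, which breaks down pyrimidines, with 48.5 and -4.58 at 12.5 days, 9.05 and 17.8 at 13.5 days, 175 and 166 at 14.5 days, and 100.00 and 75.3 at 16.5 days (log2 change 2.18 ± 0.36 (SE), adjusted p = 0.00246), and Nrn1, neuritin, with 85.1 and 66.1 at 12.5 days, 103 and 82.97 at 13.5 days, 281 and 282 at 14.5 days, and 271 and 286 at 16.5 days. The log2 change of Nrn1 was 1.57 ± 0.25 (SE, adjusted p = 0.00187). Both are leave-one-out calls. Upb1 was lower at 16.5 than at 14.5 days, a step that did not pass the test (adjusted p = 0.967), and it was not called without the arrays of 14.5 days (adjusted p = 0.0884) or in the fit of the 8 arrays (adjusted p = 0.0738). Nrn1 was not called without the arrays of 12.5 days (adjusted p = 0.133). Hao1, the peroxisomal glycolate oxidase of hepatocytes, rose as well (log2 change 1.37, adjusted p = 0.00617) but is not a leave-one-out call.

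The promoters of a pair of leave-one-out risers that hold motif matches are shown as examples. Both genes are hepatocyte products that rose in the later liver, and letters known from liver and blood factors were searched in them. The sequences are the 250 bases before the annotated gene start in RefSeq (build GRCm38.p6), 5′ to 3′ on the strand of the gene, with motif matches in capitals. Cyp3a11 lies on the minus strand at chr5:145879855-145880104 and Ahsg on the plus strand at chr16:22891765-22892014.

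Cyp3a11: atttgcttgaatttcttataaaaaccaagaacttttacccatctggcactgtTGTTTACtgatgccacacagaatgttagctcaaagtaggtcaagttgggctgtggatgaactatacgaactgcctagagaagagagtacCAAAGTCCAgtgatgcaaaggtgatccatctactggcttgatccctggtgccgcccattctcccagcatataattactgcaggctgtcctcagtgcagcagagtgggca

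Ahsg: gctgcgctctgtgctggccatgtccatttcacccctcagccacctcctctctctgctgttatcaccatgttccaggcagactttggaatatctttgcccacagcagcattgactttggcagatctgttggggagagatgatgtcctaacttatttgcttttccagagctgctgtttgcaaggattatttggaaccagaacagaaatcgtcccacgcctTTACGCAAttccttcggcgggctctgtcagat

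The capitals in Cyp3a11 mark TGTTTAC, the FOXA letters, and CAAAGTCCA, the HNF4 letters, which no other hepatocyte-list riser held. In Ahsg they mark a match on the other strand to TTGCNNAA, the C/EBP letters. Over both strands, HNF4 letters were present in 1 of the 25 hepatocyte-list risers with a promoter in RefSeq (4%) against 0.512% of 14453 genes, C/EBP letters in 8 (32%) against 9.65%, FOXA letters in 4 (16%) against 3.04%, and the GATA letters AGATAA in 4 (16%) against 8.79%. No test was run on these shares, and a match of letters is not a binding site.

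No transcription factor of hepatocytes passed the test. Of 25 measured members 0 were called (median log2 change 0.04) by limma in the fit of all arrays and in that of the 8 arrays. Of all genes 1.06% were called in the first of these fits, so a count of 0 of 25 does not set the list apart. None of the 25 was below an unadjusted p of 0.05, beside 1831 of all 18194 genes. Hnf4a, a nuclear receptor that maintains hepatocyte identity, read 489 and 398 at 12.5 days, 515 and 555 at 13.5 days, 587 and 554 at 14.5 days, and 541 and 576 at 16.5 days (adjusted p = 0.838). Cebpa, the C/EBP alpha factor of mature hepatocytes, read 309.5 and 230.01 at 12.5 days, 383 and 320.1 at 13.5 days, 347 and 353 at 14.5 days, and 313 and 329 at 16.5 days (adjusted p = 0.929). In both, the later arrays lay within or just above the range of the earlier ones. Foxa1, a pioneer factor of endoderm, had a log2 change of -0.38 (adjusted p = 0.546), and the bile acid receptor Nr1h4 one of 0.30 (adjusted p = 0.564).

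The hepatoblast and oncofetal genes split. Mdk, midkine, a heparin-binding growth factor of fetal tissues, read 1258 and 1104 at 12.5 days, 609 and 579 at 13.5 days, 404 and 354 at 14.5 days, and 218 and 200.01 at 16.5 days. Its values were lower at each age with no overlap between any stages (log2 change -1.52 ± 0.13 (SE), adjusted p = 5.53e-07) and stayed called without the arrays of 12.5 days. Hmga2, a chromatin protein of proliferating embryonic cells, read 1077 and 1144 at 12.5 days, 547 and 570.5 at 13.5 days, 359.7 and 343 at 14.5 days, and 336 and 329 at 16.5 days (log2 change -1.17 ± 0.18 (SE), adjusted p = 0.00138), a fall that lay before 14.5 days. Mest, an imprinted gene, read 2062 and 2717 at 12.5 days and 1280.3 and 1271 at 16.5 days and did not pass the test (log2 change -0.52, adjusted p = 0.11). Mdk and Hmga2 are leave-one-out calls, but Hmga2 was not called without the arrays of 12.5 days (log2 change -0.68, adjusted p = 0.612). They were the 2 calls among 18 measured members, whose median log2 change was -0.09, where 0.561% of all genes were called lower. Afp, the fetal counterpart of albumin, had a log2 change of 0.09 (adjusted p = 0.884), Dlk1, a surface protein used to sort hepatoblasts, -0.10 (adjusted p = 0.908) and Alb 0.04 (adjusted p = 0.98), and none of these 3 passed the test.

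A few markers of the cells around hepatocytes fell, where 0.561% of all genes were called lower. Pdgfra, a receptor of mesenchymal cells, read 327 and 335 at 12.5 days, 166 and 203 at 13.5 days, 143 and 137 at 14.5 days, and 96.5 and 109 at 16.5 days. Its change in log2 was -0.95 ± 0.13 (SE, adjusted p = 0.000374). Hand2, a transcription factor of mesenchyme and heart, read 206 and 269 at 12.5 days, 146 and 156 at 13.5 days, 109 and 90.1 at 14.5 days, and 76.02 and 84.01 at 16.5 days. The later minus earlier log2 change was -0.96 ± 0.14 (SE, adjusted p = 0.000514). These 2 were the calls among 25 genes of stellate cells, mesenchyme and mesothelium (median log2 change -0.23). Of the 25, 19 had a negative change, beside 7890 of all 18194 genes. Both are leave-one-out calls. Hand2 is also expressed in heart, its highest value was in the second array of 12.5 days, and neither gene was called without the arrays of 12.5 days. Hand2 was also not called when the mean of all its probe sets was used. Pdgfrb, the receptor of pericytes and stellate cells, did not pass the test (log2 change -0.44, adjusted p = 0.0528).

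In endothelium 2 of 25 genes were called lower, beside 0.561% of all genes, with a list median of -0.16. Negative changes numbered 18, beside 7890 of all 18194 genes. The 2 called genes were Aplnr, the apelin receptor (log2 change -0.68, adjusted p = 0.00764), and Ednrb, an endothelin receptor (log2 change -0.58, adjusted p = 0.0252). Neither is a leave-one-out call, and Ednrb was also not called when the mean of all its probe sets was used. S1pr3, a sphingosine phosphate receptor, read 219 and 159 at 12.5 days, 75.7 and 91.3 at 13.5 days, 65.8 and 53.8 at 14.5 days, and 45.03 and 32.9 at 16.5 days. Its log2 change was -1.14 ± 0.19 (SE, adjusted p = 0.00303). Ackr3, a scavenging receptor for the chemokine Cxcl12, read 117 and 207 at 12.5 days, 60.2 and 78.8 at 13.5 days, 49.8 and 45.9 at 14.5 days, and 37.1 and 40.1 at 16.5 days. The fitted log2 change was -1.04 ± 0.17 (SE, adjusted p = 0.00255). Gja1, the gap junction protein connexin 43, chosen here after its values were seen, read 283 and 309.6 at 12.5 days, 92.7 and 129.8 at 13.5 days, 105 and 102 at 14.5 days, and 79.7 and 82.04 at 16.5 days (log2 change -0.88 ± 0.12 (SE), adjusted p = 0.000456), and its fall was called from 12.5 to 13.5 days already (adjusted p = 0.000751). For these 3 genes, all leave-one-out calls, the arrays of 12.5 days were the highest, and none was called without them. Ackr3 was not called in the fit of the 8 arrays either (adjusted p = 0.0585).

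Of 12 genes of bile duct epithelium and Notch signalling 1 was called lower, beside 0.561% of all genes. It was Sox4, a factor of biliary and progenitor cells, with 676 and 705 at 12.5 days, 355 and 416 at 13.5 days, 304 and 308 at 14.5 days, and 236 and 250.3 at 16.5 days. This gave a log2 change of -0.88 ± 0.18 (SE, adjusted p = 0.0134). It is not a leave-one-out call, and it was not called when the mean of all its probe sets was used. The extracellular matrix list had 0 of 26 called by limma in either direction (median -0.07), beside 1.06% of all genes. Below an unadjusted p of 0.05 were 6, beside 1831 of all 18194 genes, and the fit of the 8 arrays called 1 higher.

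Other genes fell as well. Tead2, a partner of the growth regulator YAP, had a log2 change of -0.89 (adjusted p = 0.00489), Zfp503 one of -1.03 (adjusted p = 0.00946), Asb4 one of -1.08 (adjusted p = 0.00405) and Fgf13, a member of the FGF family that stays inside cells, chosen here after its values were seen, one of -0.77 (adjusted p = 0.000372). 6330403K07Rik, of no stated function here, read 274 and 263 at 12.5 days, 127 and 142 at 13.5 days, 109 and 94.1 at 14.5 days, and 62.2 and 57.2 at 16.5 days. On the log2 scale it changed by -1.14 ± 0.14 (SE, adjusted p = 0.000141). Of these 5, all but Zfp503 are leave-one-out calls, and each of the 5 was higher in every earlier than in every later array. None of the 5 was called without the arrays of 12.5 days (adjusted p = 0.275 to 0.61), Tead2 was not called in the fit of the 8 arrays (adjusted p = 0.108) and Asb4 not without those of 14.5 days (adjusted p = 0.0564). At 10.5 days their means were higher still for 4 of them, from 729 for 6330403K07Rik to 1148 for Zfp503. Each of these means rests on 2 arrays. The first had a 3′ minus 5′ log2 difference of 1.49 for Gapdh, against -0.32 in the second.

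**Figure D3:**
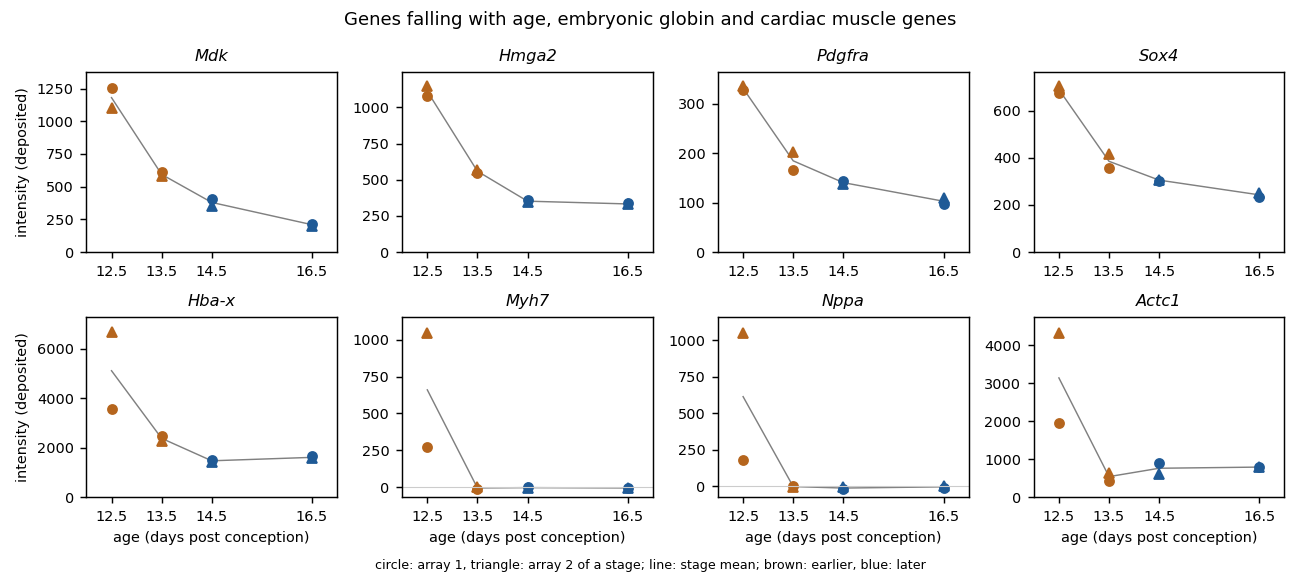
Deposited intensity (y axis, linear, own scale per gene) against age in days post conception for 4 genes that fell with age (upper row) and for an embryonic globin and 3 heart muscle genes (lower row); the points are single arrays and the line joins stage means. In the upper row every later array is below every earlier one, while the heart genes are high in the 2 arrays of 12.5 days and, for Myh7 and Nppa, at background in the other 6.

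Among the 23 measured markers of neighbouring organs, 5 were called lower (Isl1, Myh7, Nppa, Tnnt2 and Sox2) and none higher, beside 0.561% of all genes called lower. All of these but Sox2 are leave-one-out calls. The fit of the 8 arrays called 2 lower, Isl1 and Myh7, beside 0.583% of all genes. In that fit Nppa (adjusted p = 0.0857), Tnnt2 (adjusted p = 0.11) and Sox2 (adjusted p = 0.0730) were not called. Isl1, a factor of the heart field, nerve and pancreas, read 57.1 and 88.4 at 12.5 days, 28.7 and 38.6 at 13.5 days, 22.4 and 7.50 at 14.5 days, and -5.16 and -12.2 at 16.5 days (log2 change -1.58 ± 0.17 (SE), adjusted p = 2.5e-05). It was the one that stayed called without the arrays of 12.5 days, but it was not called when the mean of all its probe sets was used. Both values of 16.5 days are below 0, and its log2 change ran from -3.73 to -0.21 over the alternative settings. For Tnnt2, cardiac troponin T, the arrays of 12.5 days read 387 and 1303 and the others 39.2 to 67.8. Its change turned from -1.51 (adjusted p = 0.00246) to 0.24 without the arrays of 12.5 days. Sox2, a factor of foregut and nerve, fell in the last step, with 37.7 and 17.8 at 14.5 days and 0.996 and -1.84 at 16.5 days (log2 change -1.37 for that step, adjusted p = 0.013).

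From 12.5 to 13.5 days, 24 genes were called (0.132%), 20 lower (0.11%) and 4 higher (0.022%). The lower genes included Myh7 (adjusted p = 1.35e-05) and Nppa (adjusted p = 1.67e-05), whose change has no size because they were at background at 13.5 days, and Tnnt2 (log2 change -3.50, adjusted p = 1.67e-05). Actc1, Myl2, Myl3, Myl4, Tnni1 and Tnni3, chosen here after their values were seen because they are contractile proteins of the heart, were also among the 20. Itih4, Hp and A2m were 3 of the 4 higher genes.

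Of the 3 embryonic globins, 1 fell past the test, where 0.561% of all genes were called lower. Hba-x, the zeta-like globin of yolk sac red cells, read 3557 and 6680.2 at 12.5 days, 2468 and 2290.4 at 13.5 days, 1510.5 and 1429.8 at 14.5 days, and 1653 and 1566 at 16.5 days (log2 change -1.14 ± 0.19 (SE), adjusted p = 0.00311), and it is a leave-one-out call. It was not called in the fit of the 8 arrays (adjusted p = 0.0514) or without the arrays of 12.5 days (log2 change -0.62, adjusted p = 0.601). Hbb-bh1 read 777 and 2175 at 12.5 days, 722 and 884 at 13.5 days, 506 and 653 at 14.5 days, and 549 and 530.2 at 16.5 days (log2 change -0.85, adjusted p = 0.141), and Hbb-y, the epsilon globin, 3739 and 4173 at 12.5 days, 3323 and 3503 at 13.5 days, 2584 and 1912 at 14.5 days, and 3143 and 3167 at 16.5 days (log2 change -0.47, adjusted p = 0.415). All 3 had every later array below every earlier one, beside 4.61% of all genes. Neither Hbb-bh1 nor Hbb-y passed the test, and the second array of 12.5 days was the highest for all 3. Of the adult globins, Hbb-b2 read 2812 and 2185 at 12.5 days, 2469 and 2597 at 13.5 days, 2511 and 2401 at 14.5 days, and 2859 and 3060.2 at 16.5 days (adjusted p = 0.966). The brightest globin probe sets of the array list several genes and were not used.

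Most genes of red cell making did not pass the limma test. Of 22 blood cell transcription factors 0 were called (median log2 change 0.15), and Klf1, the erythroid factor that switches on adult globin, read 2710.3 and 2585 at 12.5 days, 3076 and 2948 at 13.5 days, 3144 and 3045 at 14.5 days, and 3269 and 3382 at 16.5 days (adjusted p = 0.784). Heme synthesis had 0 of 11 called (median 0.25), the red cell membrane and skeleton 0 of 17 (median 0.27) and red cell maturation 1 of 17 (median 0.13). Of all genes 0.495% were called higher. All 17 membrane genes had a positive change, beside 10223 of all 18194 genes, and none alone was past the test. The fit of the 8 arrays called 3 of these membrane genes higher, beside 1.17% of all genes. Below an unadjusted p of 0.05 were 1 of the transcription factors, 3 heme genes and 6 membrane genes, beside 1831 of all 18194 genes. The fit of the 8 arrays called 1 transcription factor higher and 1 heme gene lower. Aqp1, the water channel of red cells, read 502 and 403 at 12.5 days, 747 and 589.9 at 13.5 days, 986 and 979.6 at 14.5 days, and 1139.5 and 1116 at 16.5 days (log2 change 0.92, adjusted p = 0.113, and 0.0232 in the fit of the 8 arrays). Isg20, an exonuclease counted here with the late red cell genes, was the call, with 252 and 132 at 12.5 days, 308 and 326 at 13.5 days, 563 and 507 at 14.5 days, and 465 and 513 at 16.5 days. Its change in log2 was 1.03 ± 0.16 (SE, adjusted p = 0.0016). Isg20 was not called in the fit of the 8 arrays (adjusted p = 0.0594) or without the arrays of 12.5 days (adjusted p = 0.265). Abcb10, a mitochondrial transporter of the heme pathway, read 1102 to 1389 in the earlier and 1464 to 1794 in the later arrays (adjusted p = 0.49).

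The neutrophil list was the blood cell list with most calls. Of 25 measured granule and neutrophil genes, 5 were called higher and 0 lower (0.495% of all genes were called higher), and 16 had every later array above every earlier one, beside 5.73% of all genes. The list's median log2 change was 0.52. Ctsg, cathepsin G of the primary granules, read 173 and 130.2 at 12.5 days, 281 and 266 at 13.5 days, 422 and 408 at 14.5 days, and 422 and 441 at 16.5 days. The later minus earlier log2 change was 1.00 ± 0.12 (SE, adjusted p = 0.000135). Mpo, the myeloperoxidase of the same granules, read 826 and 890.4 at 12.5 days, 1372 and 1128 at 13.5 days, 1786 and 1788 at 14.5 days, and 1799 and 1721 at 16.5 days. Its log2 change was 0.77 ± 0.17 (SE, adjusted p = 0.027). Camp, a peptide of the secondary granules, read 106 and 130.1 at 12.5 days, 204 and 211 at 13.5 days, 277 and 338 at 14.5 days, and 378 and 379.7 at 16.5 days. The fitted log2 change was 1.05 ± 0.22 (SE, adjusted p = 0.0198). In all 3 every later array was above every earlier one, and Ctsg and Mpo read alike at 14.5 and 16.5 days. Ltf, lactoferrin (log2 change 0.50, adjusted p = 0.00846), and Ms4a3 (log2 change 0.52, adjusted p = 0.0291) were the others called. Only Ctsg is a leave-one-out call. The fit of the 8 arrays called 15 of the 25, beside 1.17% of all genes called higher. None was called without the arrays of 12.5 days, where 21 of 25 changes were positive and the median was 0.30. In the second array of 12.5 days this list was not lower than in the first (median difference 0.10), unlike the hepatocyte lists.

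Monocyte, macrophage and Kupffer cell genes had 0 of 23 called, beside 1.06% of all genes, and a median log2 change of 0.38. In 10 members every later array was above every earlier one, beside 5.73% of all genes. Cd5l, a protein that resident macrophages secrete, read 436 and 258 at 12.5 days, 622 and 673 at 13.5 days, 1146 and 864 at 14.5 days, and 1051 and 1106 at 16.5 days (log2 change 1.12, adjusted p = 0.0523), and C1qb, a chain of complement C1q made by macrophages, had a log2 change of 0.55 (adjusted p = 0.101). Of the 23, 13 were below an unadjusted p of 0.05 in limma, beside 1831 of all 18194 genes. The fit of the 8 arrays called 5 higher, beside 1.17% of all genes. The eosinophil, basophil and mast cell list had 0 of 12 called (median 0.17). Prg2, the major basic protein of eosinophil granules, read 114 and 195 at 12.5 days, 266 and 236 at 13.5 days, 391 and 339 at 14.5 days, and 364 and 328 at 16.5 days (adjusted p = 0.0828). Lymphocytes (0 of 17, median 0.08), blood stem and progenitor cells (0 of 15, median -0.07) and megakaryocytes and platelets (0 of 18, median 0.02) lay near the median of all genes. In these 4 lists, from eosinophils to megakaryocytes, 3, 3, 3 and 2 genes were below an unadjusted p of 0.05, and the fit of the 8 arrays called 1 gene, of the stem cell list, lower.

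No gene of cell division was called. Of 27 genes of DNA replication 0 were called (median log2 change 0.11), and of 29 of mitosis 0 (median 0.12), beside 1.06% of all genes. At that share, counts of 0 do not set these lists apart. Of their changes 24 and 26 were positive, beside 10223 of all 18194 genes. Cytosolic ribosomal proteins also had 0 of 16 called (median -0.03). Below an unadjusted p of 0.05 in limma were 1 replication gene, 0 of mitosis and 1 ribosomal protein, beside 1831 of all 18194 genes. The fit of the 8 arrays called 0, 1 (higher) and 1 (lower) of the 3 lists.

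**Figure D4:**
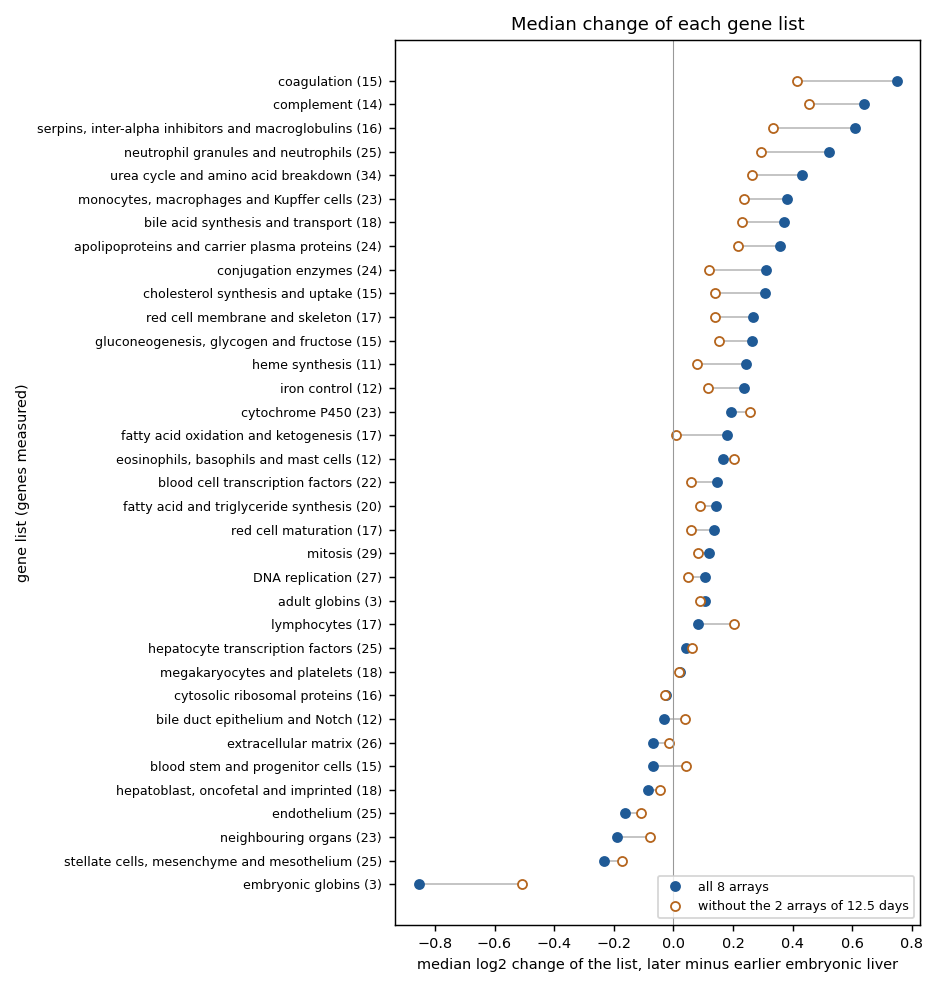
Median log2 change (x axis, later minus earlier liver) of the 35 gene lists, with the number of measured genes in brackets; filled points are all 8 arrays and open points leave out the 2 arrays of 12.5 days. Coagulation (0.75), complement (0.64) and serpins and inhibitors (0.61) are at the top and embryonic globins (-0.85) at the bottom, and the open points of these 4 lists lie closer to 0.

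A few genes changed at 1 stage, in a way that does not follow age. Golt1a, a Golgi transport protein, read 469.7 and 336 at 12.5 days, 321 and 329 at 13.5 days, -7.82 and -44.3 at 14.5 days, and 279 and 267 at 16.5 days. It was present in 6 arrays and at background in both arrays of 14.5 days, a fall (adjusted p = 7.8e-14) and return (adjusted p = 2.41e-13) read by its single probe set, and no size is given because both values of 14.5 days are below 0. Its call in the full comparison (adjusted p = 8.84e-12) rests on the arrays of 14.5 days and is lost without them. Ripor1 had all earlier arrays below 0 and then 259 and 318 at 14.5 days and 39.2 and 92.9 at 16.5 days. It rose at 14.5 days (adjusted p = 2.63e-07) and fell after (adjusted p = 0.0129), and no fold is given because its earlier values are below 0. The other Ripor1 probe set of the array read 144 to 167 in the same 8 arrays, so the probe sets of this gene disagree.

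From 13.5 to 14.5 days 9 genes were called (0.0495%), 8 higher (0.044%) and 1 lower (0.0055%). From 14.5 to 16.5 days 16 were called (0.0879%), 5 higher (0.0275%) and 11 lower (0.0605%). In the fit of the 8 arrays no gene was called higher for the first of these steps and none lower for the second. Besides the genes above, B430306N03Rik rose at 14.5 days, from 36.8 and 42.1 to 188 and 182 (log2 change 1.86, adjusted p = 0.00287). Smim5, a small membrane protein, was level up to 14.5 days and then rose, with 83.9 and 75.8 at 12.5 days, 92.4 and 95.1 at 13.5 days, 91.4 and 114 at 14.5 days, and 221 and 224 at 16.5 days (log2 change 1.02 for the last step, adjusted p = 0.00334). Cym, chymosin, a milk-clotting protease of the stomach, read 69.7 and 53.8 at 12.5 days, 106 and 81.7 at 13.5 days, 304 and 173 at 14.5 days, and 8.47 and 17.5 at 16.5 days. It fell after 14.5 days (log2 change -3.10, adjusted p = 5.41e-08). Actg2, the actin of gut smooth muscle, also fell after 14.5 days, with 195 and 169.7 at 12.5 days, 191 and 195 at 13.5 days, 351 and 227 at 14.5 days, and 55.5 and 50.6 at 16.5 days (log2 change -2.11, adjusted p = 0.000849). Cym and Actg2 are genes of the stomach and gut wall, both were highest in the first array of 14.5 days, and their part in the other results of that array was not tested.

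**Figure D5:**
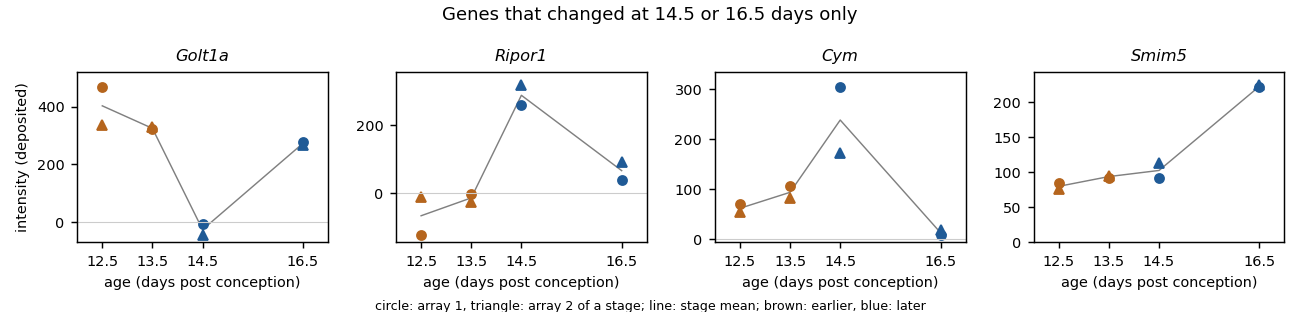
Deposited intensity (y axis, linear, own scale per gene) against age in days post conception for Golt1a, Ripor1, Cym and Smim5; the points are single arrays and the line joins stage means. Golt1a is at background only at 14.5 days, Ripor1 and Cym are highest at 14.5 days, and Smim5 is highest at 16.5 days.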

How the data were processed

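Biotin-labelled cRNA of total RNA was hybridised to Affymetrix mouse whole-genome arrays, per the labels' protocols. The deposited table holds 1 linear intensity per probe set and array (45101 probe sets, 32 arrays), and how the authors computed and normalized these intensities is not given in the sources used here. Negative values were replaced by 0 before log2(value + 16) was computed. Of the probe sets, 34958 list 1 gene, 932 several and 9211 none in the platform annotation. Each of 18194 genes was represented by its probe set of highest mean, a choice made for 9012 genes with more than 1.

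R 4.3.3 and limma 3.58.1 fitted 1 mean to each of 16 groups over all 32 arrays (eBayes with trend, 16 residual and 4.72 prior degrees of freedom). Contrasts were the mean of 14.5 and 16.5 days minus that of 12.5 and 13.5 days, and the 3 single steps, which share arrays. Benjamini-Hochberg adjustment ran over all genes, separately for each contrast. Pools and arrays number 2 a stage, which limits precision.

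The members and the 35 gene lists (737 genes, 656 measured) were chosen with earlier results of these data known. Genes were named from among the 20 largest calls per direction without overlap of arrays and above the median intensity, up to 5 per list by p, up to 4 per step and direction, and members of selected lists. Not every gene of this rule is named. Alb is named as a tissue marker, and the other exceptions are said to be chosen after their values were seen. Alternatives covered the constant, normalization, low values, probe sets, samples in the fit and the replicate block. Motifs were counted on both strands of the 250 bases before each gene start.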

Additional observations from a re-analysis of the deposited data

Results flagged for a closer look

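In 10 of 196 groups of 4 arrays tested (98 named genes, earlier and later), 1 array lay far from the other 3 on the log2 scale, where chance alone gives about 1 in 20. Among the later arrays these were Klkb1, plasma prekallikrein, in the first array of 14.5 days (250.6, nearest other value 296), Gnmt in the second array of 16.5 days (186, nearest 221), Mpo in the same array (1721, nearest 1786), Nppa in the same array (4.52, the other 3 below 0) and Tnni3, cardiac troponin I, in the second array of 14.5 days (3.06, the other 3 below 0). The last pair are differences at background.

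Among the earlier arrays they were Ugt2b36 (73.5, nearest 142) and Actg2 (169.7, nearest 191) in the second array of 12.5 days, Golt1a in the first array of 12.5 days (469.7, nearest 336), Hamp in the first array of 13.5 days (68.6, nearest 56.9) and Rsad2 in the second array of 13.5 days (202, nearest 191). The second array of 12.5 days is the one with the highest heart muscle values and lower hepatocyte lists, and whether the low Ugt2b36 belongs to that was not tested.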

How the results depend on the processing

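Counts of called genes (higher and lower, 90 and 102 with the setting reported) moved with the model and the arrays used. They were 212 higher with the 8 arrays alone, 157 with the 12 embryonic arrays, 165 without the arrays of 48 h and 47 without those of 14.5 days. With the 8 arrays as 2 groups of 4 and stages not fitted, they were 12 higher and 2 lower. The second array of 48 h, of adult liver, had a 3′ minus 5′ log2 difference of 2.42 for Actb and 1.22 for Gapdh. The 8 arrays had 0.38 to 0.64 and -0.25 to -0.17. Without the arrays of 48 h, Aqp1, C1qb, Cd5l, Hbb-bh1, Pdgfrb and Prg2 were called and no named gene lost its call. The part of the second array of 48 h in the counts was not tested. Without the arrays of 12.5 days the counts were 8 and 5. The settings that leave out all arrays of 12.5 or 14.5 days were chosen after seeing the data. With a constant of 1 or 64, 65 and 157 genes were lower. Leaving out 1 array gave 37 to 125 higher and 46 to 101 lower. For 13.5 minus 12.5 days, 14 (constant 1), 13 (constant 64) and 11 (quantile normalization) were higher, 37 lower (constant 64), 0 and 0 with the 8 arrays, and 0 and 1 with the 12, with ranges of 2 to 21 and 9 to 44 when 1 array was left out. For 14.5 minus 13.5 days, 14 (quantile) were higher, and 6 (constant 1), 5 (constant 64), 3 (quantile) and 5 (without 48 h) lower, 0 and 2 with the 8 arrays, and 3 and 3 with the 12, with ranges of 7 to 11 and 1 to 12. For 16.5 minus 14.5 days, 18 and 17 (constant 1) and 6 lower (mean of at least 100) were called, 1 and 0 with the 8 arrays, and 1 and 2 with the 12, with ranges of 5 to 18 and 5 to 13. Fits with fewer arrays have fewer degrees of freedom, and some of them called more genes than the setting reported. The causes of these differences were not tested.

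Fitted with the replicate number as a block (replicate block), 87 genes were higher and 98 lower, and 94 of 98 named genes kept their side of the threshold. Array differences correlated between stages at -0.11 to 0.08 over all genes. Whether the arrays of the same number belong together was not tested.

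Signs changed for Cebpa (-0.061), Tnnt2 (0.24) and Actc1 (0.52) without 12.5 days, for Alb (-0.011) at a common 75th percentile, and for Cym at constant 64 (0.10) and when 1 array was left out (-0.32 to 0.058, the latter without the second array of 14.5 days). Intensities near 0 limit dim genes, and 2 arrays a stage limit the steps.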

Other observations

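Several leave-one-out calls, named here after their values were seen, belong to none of the gene lists. Among the risers, Ces2a, a carboxylesterase of liver and gut, read 7.22 and -2.42 at 12.5 days, 22.2 and 24.9 at 13.5 days, 44.3 and 52.8 at 14.5 days, and 49.9 and 52.1 at 16.5 days. This gave a log2 change of 1.25 ± 0.19 (SE, adjusted p = 0.000968). All 8 values of Ces2a were below the median of all values (74.6). Its log2 change ran from 0.565 to 2.60 over the alternative settings, and it was not called with a constant of 64. Rsad2, an antiviral protein that interferon induces, read 190.2 and 190.1 at 12.5 days, 191 and 202 at 13.5 days, 358 and 455 at 14.5 days, and 338 and 322 at 16.5 days (log2 change 0.87 ± 0.12 (SE), adjusted p = 0.000372), and its earlier arrays lay within 12.1 units of each other. Rsad2 was called under all 22 alternative settings. Olfm4, a secreted protein of the secondary granules of neutrophils, had a log2 change of 0.64 (adjusted p = 0.00405).

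Among the falls were Zfp423, a zinc finger factor of mesenchymal precursors, with 69.3 and 63.1 at 12.5 days, 43.2 and 35.5 at 13.5 days, 8.36 and 19.4 at 14.5 days, and 13.7 and 6.24 at 16.5 days (log2 change -1.29 ± 0.17 (SE), adjusted p = 0.00035), and Crabp1, a binding protein for retinoic acid, with 85.1 and 45.8 at 12.5 days, 18.7 and 27.7 at 13.5 days, 9.55 and 14.4 at 14.5 days, and 14.4 and 1.01 at 16.5 days. On the log2 scale it changed by -1.14 ± 0.16 (SE, adjusted p = 0.000613). Col4a5, a chain of basement membrane collagen (log2 change -0.78, adjusted p = 0.00503), Tgfbi, a matrix protein that TGF-beta induces (log2 change -0.68, adjusted p = 0.00489), Meis2, a homeobox factor (log2 change -0.67, adjusted p = 0.00427), and the receptor phosphatase Ptprs (log2 change -0.52, adjusted p = 0.00676) were lower as well. Zfp423 was also below the median of all values in each of the 8 arrays, and Crabp1 in all but the first of 12.5 days. Ptprs was not called when the mean of all its probe sets was used, and Tgfbi not when probe sets named _x_at or _s_at were left out. Of the genes named here, Rsad2 was called without the arrays of 12.5 days and the others were not, and Olfm4, Crabp1 and Col4a5 were not called in the fit of the 8 arrays (adjusted p = 0.0669, 0.0883 and 0.0502).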
